A study of Mus musculus with 28 samples.

Results

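The complement genes described here encode the terminal components C6, C7, C8 (chains C8a, C8b and C8g) and C9, together with Susd4, in the livers of ageing mice. They were taken from the array annotation by gene symbol, using probe sets that name exactly 1 gene. Of the 7 listed genes, 6 had such a probe set, each a single one, among 18820 genes with a 1-gene probe set and 35556 probe sets in all. C7 had none and was not analysed here. The genes were chosen by their differences between switched and lifelong livers at 24 months, so values in that comparison are a description and carry no test.

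Liver RNA of 28 male C57BL/6J mice was measured, 1 array for each mouse. The intermittent diet alternated a week of free access to a moderate-fat food (25% of energy from fat) with a week at 60% of the energy eaten by control mice. The lifelong groups ate this way from 9 weeks of age and were sampled at 6 months (n = 6), 12 months (n = 7) or 24 months (n = 7). The switched mice (n = 8) ate the moderate-fat food without restriction until 12 months, then took up the intermittent diet and were sampled at 24 months. Every mouse, in every group, was housed alone from the start of the diet, and went without food for 4 h, received a gavage of carboxymethyl cellulose, and stayed without food for another 6 h until sampling. No genetic alteration is named in the labels. The labels do not say in which week of the cycle a mouse was sampled, and no livers of mice that stayed on moderate-fat food or on the control diet were analysed here, so past diet and the shorter time on the intermittent diet cannot be told apart.

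Complement is a set of plasma proteins, made mostly by hepatocytes, that marks and kills microbes. The classical, lectin and alternative pathways converge on cleavage of C3 and then C5, after which C5b binds C6, C7 and C8, and many copies of C9 polymerise into a pore, the membrane attack complex. C6, C7, C8a, C8b and C9 share the MACPF fold of pore-forming proteins, whereas C8g is a lipocalin bound to C8a by a disulphide bond. Susd4 is a membrane or secreted protein of sushi domains that has been described as a complement inhibitor acting at the C3 convertase step.

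C8a and C8b lay next to each other on chromosome 4, with 0 protein-coding genes between them, and on opposite strands. C6 and C9 lay on chromosome 15 with 8 protein-coding genes between them, C8g on chromosome 2 and Susd4 on chromosome 1. The 250 bases before the start of 4 of the genes are printed to set the genes with the largest differences between switched and lifelong livers (Susd4, C6, C8b) beside C8g, which differed little. They come from RefSeq on build GRCm38.p6, read 5′ to 3′ on the gene's own strand, at chr1:182763966-182764215 on the plus strand (Susd4, the first of 2 starts), chr15:4726960-4727209 on the plus strand (C6), chr4:104766067-104766316 on the plus strand (C8b) and chr2:25501720-25501969 on the minus strand (C8g, the first of 2 starts). Capitals mark matches, on either strand, to GTTAAT (HNF1), TGTTTNC (FOXA), TTGCNNAA (C/EBP), TTCNNNGAA (STAT) or TATAAA (of core promoters), motifs of which none overlapped another here.
Susd4: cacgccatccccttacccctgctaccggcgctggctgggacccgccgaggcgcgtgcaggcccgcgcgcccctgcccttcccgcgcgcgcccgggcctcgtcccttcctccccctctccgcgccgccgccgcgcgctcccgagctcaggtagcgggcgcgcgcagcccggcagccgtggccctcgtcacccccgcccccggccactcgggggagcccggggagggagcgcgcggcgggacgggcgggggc
C6: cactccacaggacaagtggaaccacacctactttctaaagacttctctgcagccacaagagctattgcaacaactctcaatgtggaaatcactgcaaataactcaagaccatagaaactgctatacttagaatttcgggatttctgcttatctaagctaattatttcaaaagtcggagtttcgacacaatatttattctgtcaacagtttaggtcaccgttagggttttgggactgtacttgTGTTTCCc
C8b: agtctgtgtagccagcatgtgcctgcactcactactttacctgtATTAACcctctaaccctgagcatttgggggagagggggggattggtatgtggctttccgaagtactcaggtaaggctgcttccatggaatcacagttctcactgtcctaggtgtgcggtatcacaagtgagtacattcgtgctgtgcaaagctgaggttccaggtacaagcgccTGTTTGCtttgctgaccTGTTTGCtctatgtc
C8g: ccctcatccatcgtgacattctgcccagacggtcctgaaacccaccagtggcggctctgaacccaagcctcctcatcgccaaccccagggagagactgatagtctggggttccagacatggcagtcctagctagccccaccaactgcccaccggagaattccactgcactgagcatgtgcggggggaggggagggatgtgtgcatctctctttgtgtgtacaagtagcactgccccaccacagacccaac

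The motif letters were spread unevenly over the windows of the 6 genes. FOXA is a forkhead factor of hepatocytes, and its letters were found in C6 once, in C8a once and in C8b at 2 places, against 17.8% of 32841 promoter windows of the same length. They were also found once before the second start of Susd4, which is not printed. The HNF1 letters were found in C8a and C8b, against 6.43% of windows. C9 held the C/EBP letters (9.57% of windows) and C8a the STAT letters (7.02% of windows). The TATAAA letters (12.4% of windows) were in none of the 6 windows before the first start, and none of the 5 motifs was found in the windows before C8g or before the first start of Susd4. The window before the first start of Susd4 stood apart in composition, with 82.8% G or C and 41 CpG dinucleotides. Before the first start of C8g there were 59.2% and 6, before C8b 50.4% and 4, and before C6 40.0% and 4. The medians over all windows were 52.4% and 6. Before the second starts the values were 61.6% and 10 for Susd4 and 55.6% and 13 for C8g. A match is only a run of letters, and nothing about binding was measured.

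The tissue is labelled liver, and hepatocyte markers were bright in all groups. The mean level of 13 measured markers, such as Alb and Ttr, ran from 12.85 to 12.94 on the log2 scale in switched livers and from 12.84 to 13.00 in lifelong 24-month livers, and 0 of 13 passed the limma test between these groups (1 reached an unadjusted p under 0.05). The lowest correlation between any 2 arrays was 0.978. All differences below are from a linear model (limma) with the group and the prefix of the array name (G150, G151 or G152) as terms, on log2 values normalised by RMA, and a call is an adjusted p under 0.05 over all 35556 probe sets. Each group holds arrays of all 3 prefixes. The labels do not say what a prefix stands for. In whole liver, fewer cells of a type and less RNA in each cell cannot be told apart.

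Susd4, the regulator, had a lower mean in switched livers than in any lifelong group, and a wider spread. In switched livers it ran from 7.17 through a median of 7.98 to 8.98, against 8.35, 9.29 and 9.67 in lifelong 24-month livers, as log2 expression. In the younger lifelong livers the lowest, median and highest levels were 9.16, 9.31 and 9.61 at 6 months and 9.25, 9.73 and 9.86 at 12 months. Switched livers lay below the lowest lifelong 24-month liver in 6 of 8 cases, and all 8 lay below the lifelong mean, but the groups overlapped because 1 lifelong liver, replicate 1, was at 8.35. The difference was −1.24 on the log2 scale (SE 0.21), 2.36-fold lower in switched livers. Its SE rests on a spread shared by all 4 groups, although their spreads differed. With only the compared groups in the model the difference was −1.26 (SE 0.27). Within prefixes G150, G151 and G152 it was −1.39, −1.57 and −0.56. These prefixes hold 6, 1 and 1 switched and 4, 1 and 2 lifelong 24-month livers. The SD among switched livers was 0.62, above that of 97.2% of probe sets in the same group. In lifelong 24-month livers it was 0.43, also high, above that of 91.1% of probe sets in that group.

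C6 starts assembly on C5b. Its levels ran from 8.85 through a median of 9.61 to 10.19 in switched livers, against 9.81, 10.39 and 10.92 in lifelong 24-month livers. Younger lifelong livers had 10.98, 11.12 and 11.64 at 6 months and 10.55, 10.96 and 11.16 at 12 months. Switched livers were below the lowest lifelong 24-month liver in 5 of 8 cases, and the difference was −0.77 (SE 0.19), 1.70-fold lower in switched livers. Within prefixes G150, G151 and G152 it was −0.84, −1.41 and −0.33.

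C8 is built of 3 chains from separate genes, and no test was made of whether the chains differ from each other in their response. C8b, the chain that binds the growing complex, had 10.63, 10.98 and 11.65 as lowest, median and highest levels in switched livers, against 11.15, 11.72 and 12.04 in lifelong 24-month livers. The difference was −0.58 (SE 0.15), 1.49-fold lower in switched livers, of which 5 of 8 lay below every lifelong 24-month liver. C8a, the chain that enters the membrane, was at 10.99, 11.26 and 11.51 in switched livers and 11.49, 11.53 and 11.73 in lifelong 24-month livers. Its difference was smaller, −0.34 (SE 0.08), yet 7 of 8 switched livers lay below every lifelong 24-month liver, the lifelong SD being 0.10. C8g, the lipocalin chain, was at 12.43, 12.75 and 12.82 in switched livers and 12.65, 12.76 and 12.89 in lifelong 24-month livers. Its difference was −0.05 (SE 0.05), and only 1 of 8 switched livers lay below the lifelong range. Within prefixes G150, G151 and G152 the difference was −0.59, −1.31 and −0.14 for C8b and −0.33, −0.75 and −0.14 for C8a. For C8g it was −0.05, 0.09 and −0.11, so its sign was not the same in all prefixes.

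C9 forms most of the pore. Its levels were 10.41, 10.71 and 11.23 in switched livers, against 11.01, 11.14 and 11.62 in lifelong 24-month livers. The difference was −0.50 (SE 0.10), 1.41-fold lower in switched livers, and 6 of 8 lay below every lifelong 24-month liver. It was −0.49, −0.43 and −0.72 within prefixes G150, G151 and G152.

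**Figure D1:**
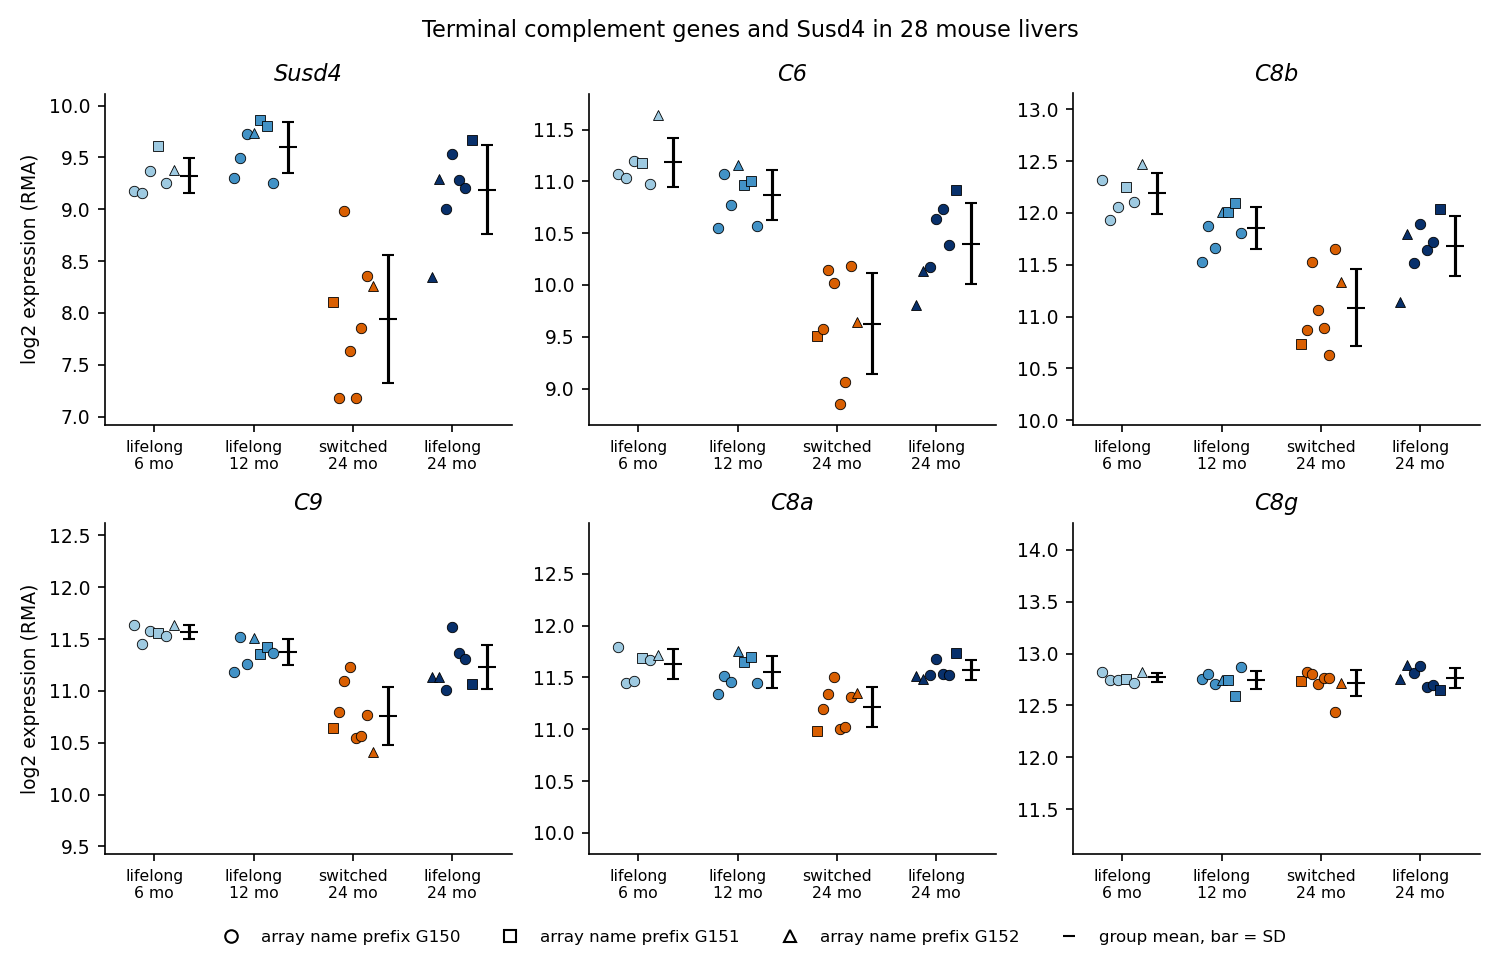
Log2 expression (vertical axes, each spanning the same number of log2 units) of Susd4, C6, C8b, C9, C8a and C8g in each liver of the 4 groups, 1 point for each mouse, with the marker shape giving the array name prefix and the bar the group mean ± SD. Switched livers have the lowest mean in all 6 panels, at 7.94 for Susd4 against 9.19 in lifelong 24-month livers, while C8g means span 12.72 to 12.77. By median they are not lowest for C8g (12.75, against 12.74 at 12 months), where 1 switched liver is at 12.43.

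Over the 6 genes the median difference between switched and lifelong livers at 24 months was −0.54, beside −0.00 over all probe sets. Susd4 was the 1 gene of the 6 among the 7 probe sets called in this comparison, 0.0197% of those tested (5 higher and 2 lower in switched livers), and 2696 had an unadjusted p under 0.05. Since this comparison chose the genes, the count is given without reading anything from it. Each of the 6 differences kept its sign when any of the 15 livers was left out, which describes the chosen values and is no test. Susd4 ranged between −1.39 and −1.14, and C8g, close to 0 throughout, between −0.06 and −0.01. Without replicate 1 of the lifelong 24-month group the differences were −1.36 for Susd4, −0.86 for C6 and −0.67 for C8b.

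The switched livers were also set against younger lifelong livers. No switched liver overlapped the 6-month livers for Susd4, C6, C8b and C9, where 1.28% of all probe sets were lower without overlap. The same held against 12-month livers for Susd4 and C6, with a background of 0.357%. C8a and C8g overlapped both younger groups. These groups differ in age as well as in diet history, which cannot be told apart, and the switched livers had already entered the choice of genes.

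The order of group means was not the same for all genes. For C6, C8b and C9 the mean was lowest in switched livers and, among lifelong livers, lower at each later age. C6 averaged 9.62 ± 0.49 (SD) in switched livers, and 11.18 ± 0.24, 10.87 ± 0.24 and 10.40 ± 0.39 in lifelong livers of 6, 12 and 24 months. C8b averaged 11.09 ± 0.38 in switched livers, and 12.19 ± 0.20, 11.85 ± 0.20 and 11.68 ± 0.29 in lifelong livers of 6, 12 and 24 months. C9 averaged 10.76 ± 0.28 in switched livers, and 11.56 ± 0.07, 11.37 ± 0.12 and 11.23 ± 0.21 at the same lifelong ages. Neighbouring lifelong groups in each of these series overlapped, and none of these neighbours passed the test. Susd4 averaged 7.94 ± 0.62 in switched livers, and 9.32 ± 0.17, 9.60 ± 0.25 and 9.19 ± 0.43 in lifelong livers of 6, 12 and 24 months, so its highest mean was at 12 months, with no test passed between lifelong ages. C8a averaged 11.22 ± 0.19 in switched livers, and 11.63 ± 0.14, 11.55 ± 0.15 and 11.57 ± 0.10 at the 3 lifelong ages. C8g means lay between 12.72 and 12.77 in every group.

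Within the lifelong diet, C6 was lower in old livers. It averaged 10.40 ± 0.39 at 24 months (SD, n = 7) and 11.18 ± 0.24 at 6 months (SD, n = 6), and the 2 groups did not overlap, which 0.830% of probe sets showed in this direction. The difference was −0.78 (SE 0.20, limma adjusted p = 0.0239), and 7 of 7 livers at 24 months lay below every liver at 6 months. This comparison shares the lifelong 24-month livers with the one that chose the genes. The adjusted p was 0.104 without replicate 6 of the 6-month group, whose C6 level was the highest of all at 11.64, and the call was also lost without replicate 3 of that group (0.0555) or without replicate 1 or 3 of the 24-month group (0.0509 and 0.0540). With prefix G150 alone the difference was −0.58 (adjusted p = 0.309), and with prefixes G151 and G152 alone it was −1.11 (adjusted p = 0.370). Of 13 hepatocyte markers, 1 was called lower between these ages (median −0.01, 4 at an unadjusted p under 0.05), beside 2.63% of all probe sets. The part of these markers in the C6 difference was not tested.

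C8b and C9 did not pass between 24 and 6 months, with differences of −0.52 (SE 0.16, adjusted p = 0.0535) and −0.32 (SE 0.11, adjusted p = 0.0883) in limma. C8b passed with other settings, such as the replicate block (−0.57, adjusted p = 0.0408) and array weights (adjusted p = 0.0305). Susd4 (−0.13, adjusted p = 0.821), C8a (−0.07, adjusted p = 0.733) and C8g (−0.01, adjusted p = 0.966) did not pass. In all, 1 of the 6 genes was called, beside 4.73% of all probe sets, 2.63% lower and 2.10% higher at 24 months.

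Between 24 and 12 months limma called 0 of the 6 genes (1 reached an unadjusted p under 0.05), beside 0.0253% of all probe sets called. The largest differences were −0.45 for C6 (adjusted p = 0.380) and −0.36 for Susd4 (adjusted p = 0.554), again against the shared lifelong 24-month livers. Between 12 and 6 months, the comparison that shares no livers with the one behind the choice, limma called 0 of 6 (1 reached an unadjusted p under 0.05), beside 0.591% of all probe sets called. C8b was at −0.35 (adjusted p = 0.328), C6 at −0.33 (adjusted p = 0.511), C9 at −0.18 (adjusted p = 0.509) and Susd4 at 0.23 (adjusted p = 0.721), with an SE of 0.20 for C6 and 0.22 for Susd4.

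**Figure D2:**
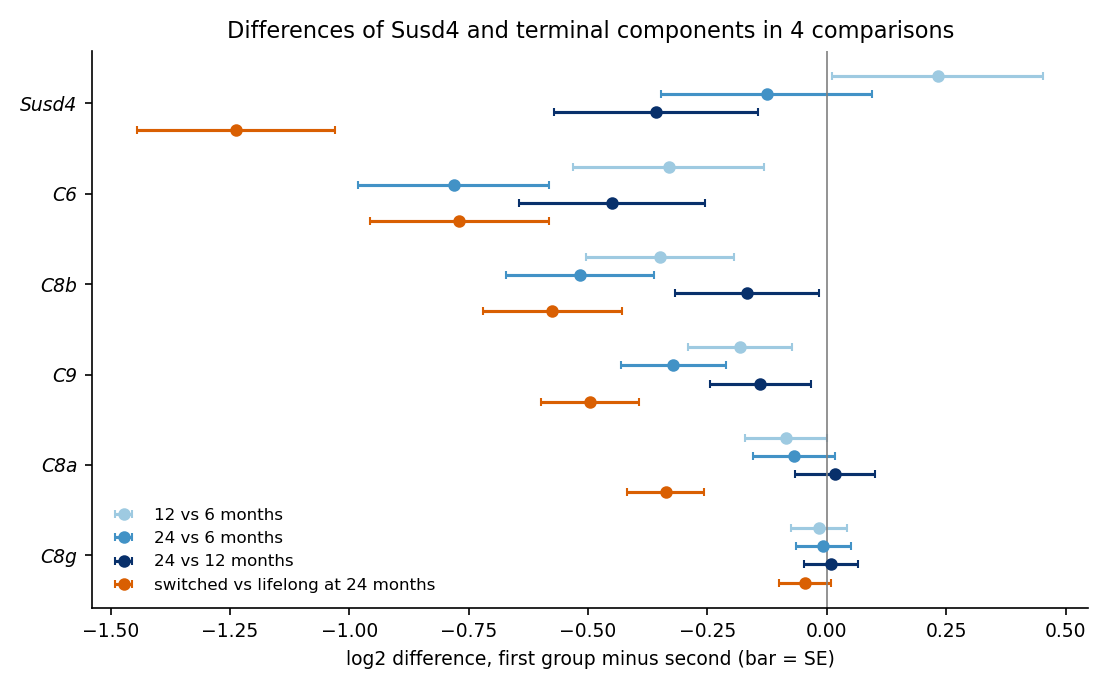
Log2 differences (horizontal axis, first-named group minus the other, bar = SE from limma) of the 6 genes in 4 comparisons. Susd4 is far from 0 between switched and lifelong livers (−1.24) and near it between 24 and 6 months (−0.13), while C6 is at −0.77 and −0.78, and both of these comparisons include the lifelong 24-month livers.

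The rest of the complement system was measured by 39 of 47 listed genes. Between switched and lifelong livers at 24 months, limma called 0 of 39 (3 reached an unadjusted p under 0.05), and their median difference was −0.02, beside −0.54 for the terminal genes with Susd4, whose value the choice of genes fixed. Of the 39 differences 22 were below 0, among them those of 7 of 8 soluble regulators (median −0.06, 0 called). C5 (Hc), the protein whose cleavage starts terminal assembly, was at 11.94 ± 0.08 in switched and 12.08 ± 0.07 in lifelong livers (−0.13, adjusted p = 0.452). C4a, whose sequence is so close to that of C4b that its probe set may read both, was at −0.51 (adjusted p = 0.360), and Clu, which encodes clusterin, a plasma regulator that binds the terminal complex, at −0.17 (adjusted p = 0.379). C3, C4b and the other listed genes without a 1-gene probe set were not analysed here.

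Between 24 and 6 months, 4 of the 39 other complement genes were called, all higher at 24 months, and the median was 0.10. Mbl2, a lectin that recognises microbial sugars, was 0.55 higher (SE 0.12, limma adjusted p = 0.0114). Cfi, the protease that inactivates C3b and C4b, was 0.24 higher (adjusted p = 0.0178), and Cpn1, a carboxypeptidase that inactivates anaphylatoxins, 0.25 higher (adjusted p = 0.0382). Itgax, a chain of complement receptor CR4 on myeloid cells, was 0.71 higher (adjusted p = 0.0491). Mbl2 was called with each of the 13 livers left out in turn, Cfi lost its call without replicate 4 (adjusted p = 0.0503) or 6 (0.0538) of the 6-month group, and Cpn1 and Itgax each kept theirs in 4 of the 13 fits. B cell markers moved with this comparison, with 4 of 5 called higher at 24 months and a mean level of 5.29 to 6.56 at 24 months against 4.97 to 5.38 at 6 months, and their part in the result was not tested. Of 10 Kupffer cell and macrophage markers, 0 were called in limma (median 0.30, 1 at an unadjusted p under 0.05). That 1 was Cd163, which was lower at 24 months (−1.11, limma adjusted p = 0.117) and the only 1 of the 10 below 0. Between 24 and 12 months 0 of 39 passed (12 at an unadjusted p under 0.05), and between 12 and 6 months 0 of 39 passed (4 at an unadjusted p under 0.05). Cd59b, of the membrane regulators, was at 0.30 between 12 and 6 months (SE 0.13, limma adjusted p = 0.302).

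**Figure D3:**
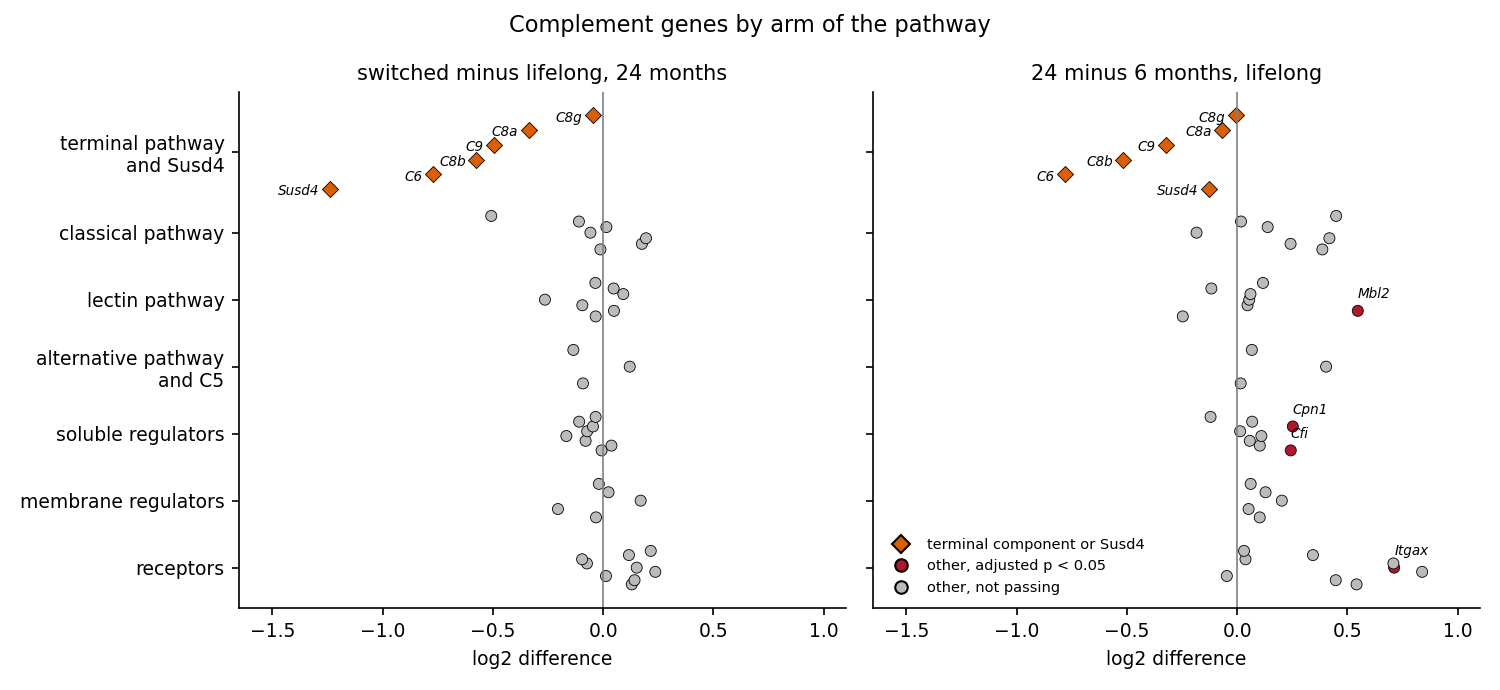
Log2 difference (horizontal axis) of each measured complement gene by arm of the pathway, for switched minus lifelong livers at 24 months and for 24 minus 6 months, with diamonds for the terminal genes and Susd4 and red circles for other genes called. The other arms run from −0.51 (C4a) to 0.24 on the left, with a median of −0.02. The 4 called genes of these arms on the right are all higher at 24 months.

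Other pore-forming proteins and other sushi-domain genes were counted as well. Of 7 other MACPF genes, among them Prf1 and Mpeg1, limma called 0 in each of the 4 comparisons, and an unadjusted p under 0.05 was reached by 0 between switched and lifelong livers, 2 between 24 and 12 months, 2 between 24 and 6 months and 0 between 12 and 6 months. Mpeg1, a pore protein of macrophages, was 0.76 higher at 24 than at 12 months (adjusted p = 0.167) and 0.62 higher at 24 than at 6 months (adjusted p = 0.0916), neither of them a call, and the difference from 6 months passed with array weights (adjusted p = 0.0480) or without replicate 4 of the 24-month group (adjusted p = 0.0407). Of 4 other Susd genes, limma called 0 in each comparison (at most 1 reached an unadjusted p under 0.05), and Susd2 was at 0.38 between 24 and 6 months (adjusted p = 0.0856). Of 16 transcription factors of liver, limma called 0 in each comparison (3 to 7 reached an unadjusted p under 0.05), and Cux2 was at 0.30 between switched and lifelong livers (adjusted p = 0.379).

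How far the genes varied together from liver to liver within groups differed by pair. After removing the group and prefix means, Pearson's r over 28 livers was 0.78 between C6 and C8b, 0.72 between C8b and Susd4, 0.71 between C8a and C8b, 0.70 between C6 and C8a and 0.67 between C6 and Susd4. C9 followed C6 (0.65) and C8a (0.64) more closely than C8b (0.44) and Susd4 (0.31), and r was 0.38 between C8a and Susd4. Over the 28 livers C8g followed none of them, with r between −0.34 and 0.09, but its values were uneven by group. In the 6-month livers r was 0.64 with C8b and 0.72 with C9. In switched livers, which include the C8g value of 12.43, it was −0.64 with C8b and 0.03 with C9. Among the 20 lifelong livers alone, r was 0.75 between C6 and C8b, 0.75 between C8b and Susd4 and 0.53 between C6 and C8a. The C8b and Susd4 value was uneven over the ages, with r of 0.27 at 6 months, 0.22 at 12 months and 0.97 at 24 months. In that 24-month group replicate 1 was lowest for both genes, at 11.15 for C8b and 8.35 for Susd4. The next livers were at 11.52 and 9.00, and no r without replicate 1 was made. Between C6 and C8a r was −0.01 in the 6-month livers. These are descriptions, and the genes of a liver share an array, its normalisation and its RNA.

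The genes most like each of 4 members were found among 17625 genes by the same r. For Susd4 they were Slco1a1 (0.88), an organic anion transporter, Hsd3b5 (0.80), a steroid dehydrogenase family member of male liver, Cyp2c23 (0.79), a cytochrome of arachidonic acid oxidation, Dnaja4 (0.77) and Zfp133-ps (0.75). For C8b they were Hsd3b5 (0.90), Cyp7b1 (0.88), an oxysterol hydroxylase, Cadm4 (0.84), Igfbp2 (0.84) and Slco1a1 (0.83). For C6, Egfr, the receptor of epidermal growth factor, came first (0.88), then C8b (0.78), Tmem117 (0.76), Nrbp2 (0.73) and Gfral (0.72). For C9, Clu came first (0.78), followed by Dnaaf4, Gstp1, Mettl17 and Nox4 (each 0.66). Some of these genes were dim. Mean log2 levels over the 28 livers were 2.84 for Gfral, 3.87 for Tmem117, 4.01 for Dnaaf4 and 4.64 for Zfp133-ps. Each of these means lay below the median level of every array, so less weight can be put on their r. Slco1a1, Hsd3b5, Cyp7b1 and Gstp1 also belong to the list of male-biased liver genes described next.

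Genes that are more active in male than in female mouse liver, a bias set in part by the pattern of growth hormone release, were set beside the terminal genes. All mice here were male. Of 15 male-biased genes, 14 had a difference below 0 between switched and lifelong livers at 24 months, with a median of −0.54, and 1 was called lower, Cyp2d9 (−0.54, limma adjusted p = 0.0341). Of 14 measured female-biased genes, 0 were below 0, the median was 0.76, and 2 were called higher, Cyp2b13 (3.26, adjusted p = 0.000118) and Hao2 (1.80, adjusted p = 0.0094). The Cyp2d9 call was lost in 9 of 15 fits without 1 liver (adjusted p up to 0.162), that of Hao2 without replicate 4 (0.0559) or 7 (0.0525) of the lifelong 24-month group, and Cyp2b13 kept its call in 15 of 15. With only the 2 groups in the model, none of the 3 was called (adjusted p = 0.388, 0.229 and 0.220 in limma for Cyp2d9, Hao2 and Cyp2b13). Between 24 and 6 months, 8 of 15 male-biased genes were called lower at 24 months, beside 2.63% of all probe sets. Of 14 female-biased genes, 5 were called higher at 24 months, beside 2.10% of all probe sets. Neither count was repeated with livers left out.

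A liver's score on the male-biased list, its genes' average distance from their overall means, had a median of −0.87 (range −1.10 to −0.15) in switched livers and −0.04 (range −0.86 to 0.28) in lifelong 24-month livers. It was 0.59 at 6 months and 0.47 at 12 months. Replicate 1 of the lifelong 24-month group, the lowest lifelong liver for Susd4 (8.35), C6 (9.81) and C8b (11.15), was also the lifelong liver with the lowest male-list score (−0.86) and, on the female-biased list, the highest (0.83). For C9, C8a and C8g this liver was at 11.13, 11.51 and 12.76, near its group's medians of 11.14, 11.53 and 12.76. Within groups, r with the male-list score over 28 livers was 0.76 for C8b, 0.65 for Susd4, 0.60 for C6, 0.49 for C8a, 0.41 for C9 and 0.27 for C8g. Without the 2 livers farthest out it was 0.63 for C8b and 0.31 for Susd4, so the value for Susd4 rested largely on those livers. The male list holds Slco1a1, Hsd3b5, Cyp7b1 and Gstp1, each found above among the genes most like Susd4, C8b or C9. The r of Susd4, C8b and C9 with the male-list score is thus partly built in, and no score without these genes was made. With the female-list score r was −0.73 for C6, −0.58 for C8b, −0.50 for C9, −0.45 for C8a, −0.41 for Susd4 and 0.02 for C8g. Without the 2 livers farthest out it was −0.63 for C6, −0.37 for C8b, −0.51 for C9, −0.37 for C8a and −0.27 for Susd4. The part of these lists in the levels of the terminal genes was not tested.

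**Figure D4:**
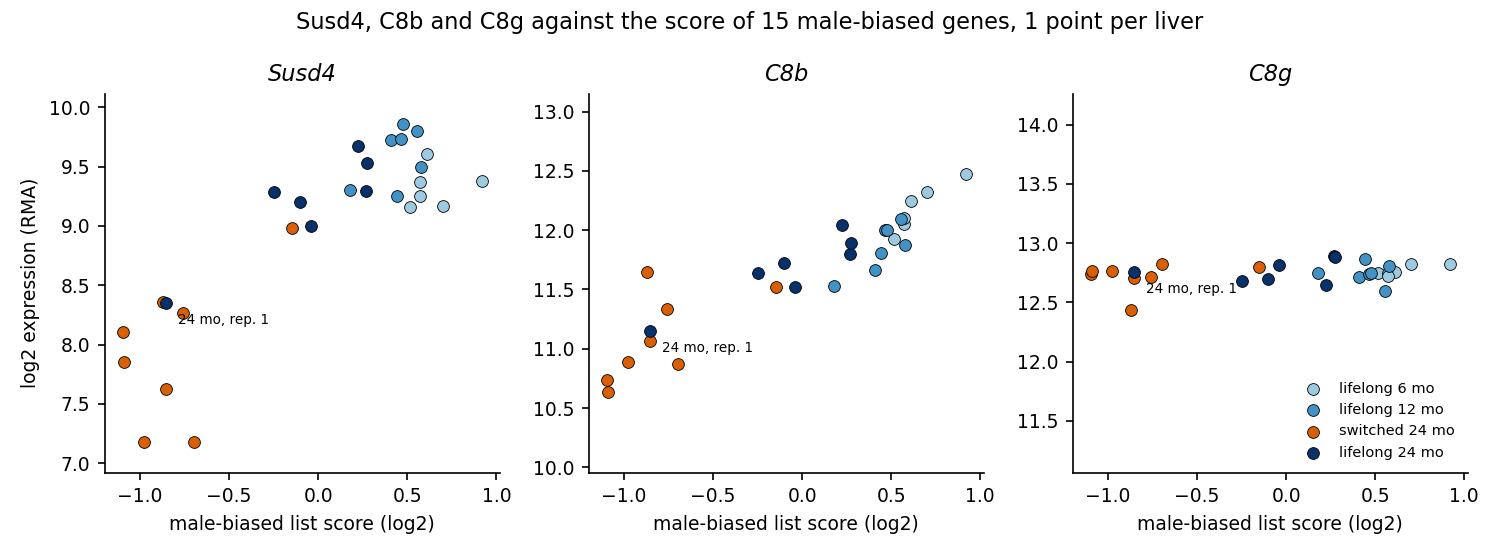
Log2 expression (vertical axes) of Susd4, C8b and C8g against the score on 15 male-biased liver genes (horizontal axes, log2), 1 point for each of 28 livers coloured by group. Replicate 1 of the lifelong 24-month group sits among the switched livers for Susd4 (8.35) and C8b (11.15), and C8g is level across scores. The score includes Slco1a1, Hsd3b5 and Cyp7b1, found among the genes most like Susd4 or C8b in these same livers.

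Markers of other liver cells were counted beside these values. Between switched and lifelong livers at 24 months, 9 of 9 stellate and fibroblast markers had a difference above 0 (median 0.19, 0 called in limma, 2 at an unadjusted p under 0.05), with a mean level of 7.82 to 8.30 in switched and 7.62 to 8.11 in lifelong livers. The 5 mesothelial markers were also all above 0 (median 0.14, 0 called, 0 at an unadjusted p under 0.05), at 4.71 to 5.34 in switched and 4.59 to 5.50 in lifelong livers. Kupffer cell markers had a median of −0.14 with 0 of 10 called and endothelial markers −0.10 with 0 of 10 called, and 0 and 1 of these were at an unadjusted p under 0.05. Hepatocyte markers had a median of −0.02. The part of these cell types in the levels of the terminal genes was not tested.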

How the data were processed

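Liver RNA of 28 mice (1 array each, so replicates are separate mice) had been hybridised to single-colour arrays after an RNA integrity number above 8.0 was required, per the labels' protocols. The authors deposited log2 expression values made with RMA, per the submitters' processing notes, and these were used unchanged. The RMA version, and whether all arrays were normalised together, are not given in the sources used here. Genes were named from the platform annotation, in which 21218 probe sets name 1 gene, 1881 several and 12457 none. No probe set was filtered out. The number of arrays limits the precision.

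All arrays entered 1 limma 3.58.1 model (R 4.3.3) with group and array-name prefix as terms and empirical Bayes moderation. Two-sided p-values were adjusted (Benjamini-Hochberg) across the 35556 probe sets in each comparison. SE is moderated. The fit was tested on simulated data. Likeness used residuals of this model over 17625 genes, passing over unnamed, predicted and small RNA genes. Annotation and figures were handled in Python 3.11.15 (matplotlib 3.10.9, numpy 2.4.6, pandas 2.3.3). Promoter windows were matched by symbol for 7 of 7 genes.

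The genes, lists, naming rule and alternatives were chosen with earlier results of these data known. The text names all listed genes and the 5 genes most like Susd4, C6, C8b and C9. Of each list other than those of cell markers, it names the genes that passed (up to 4 with the smallest p) or else the gene with the smallest p. Chosen outside this rule, after their values were seen, were Prf1, Clu, Cd163 and the named hepatocyte markers. Of the male-biased and female-biased lists, only genes called between switched and lifelong livers are named. The alternatives changed the prefix term, the arrays, groups or probe sets used, the normalisation, the moderation, the array weights, the replicate block and each liver in turn.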

Additional observations from a re-analysis of the deposited data

Results flagged for a closer look

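In 24 combinations of the 6 genes and 4 groups, 2 livers lay farther from the rest of their group than Dixon's 95% limit, and chance gives such a liver in about 1 of 20 groups. C6 in replicate 6 of the 6-month lifelong group was at 11.64, with the nearest liver at 11.20, a gap of 0.665 of the group's range against a limit of 0.625. Without it the C6 difference between 24 and 6 months was −0.64 (limma adjusted p = 0.104) rather than −0.78 (adjusted p = 0.0239). C8g in replicate 7 of the switched group was at 12.43, with the nearest liver at 12.70, a gap of 0.697 of the range against a limit of 0.526.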

How the results depend on the processing

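The differences of the 6 genes between switched and lifelong livers at 24 months kept their sign in all 12 other settings and with each of 15 livers left out. That describes values by which the genes were chosen and is no test. The median of the 6 differences, −0.54, ranged from −0.60 to −0.51 over settings and from −0.59 to −0.48 over livers left out. Susd4 ranged from −1.39 to −0.97 over settings, and C8g, close to 0 throughout, from −0.06 to −0.03. Counts of called probe sets depended more on the processing. Between switched and lifelong livers 7 were called, but 2 with prefix G150 alone, 1 with prefixes G151 and G152 alone, 0 with only the groups compared, 2 with array weights, 2 with the replicate block and 1 without the 2 arrays whose names carry a suffix. Leaving out 1 liver gave 1 to 36. Between 24 and 12 months 9 were called, but 3 without the prefix term, 0 with G150 alone, 0 with G151 and G152 alone, 1 with only the groups compared, 33 without the dimmest 30%, 23 with array weights, 0 with the replicate block, 39 without the suffixed arrays and 31 with 1-gene probe sets only, and 1 to 124 with a liver left out. Between 24 and 6 months 1681 were called, but 194 with G150 alone, 3 with G151 and G152 alone and 736 with only the groups compared, and 831 to 2370 with a liver left out. Between 12 and 6 months 210 were called, but 108 without the prefix term, 0 with G150 alone, 0 with G151 and G152 alone, 22 with only the groups compared, 518 with array weights, 122 with the replicate block, 46 without the suffixed arrays and 332 with 1-gene probe sets only, and 7 to 546 with a liver left out. Of the 6 genes, 1 was called between 24 and 6 months (C6), but 0 with G150 alone or with G151 and G152 alone, 2 (C6 and C8b) without the dimmest 30%, with a mean-variance trend, with array weights, with the replicate block, without the suffixed arrays or with 1-gene probe sets only, and 0 to 3 with a liver left out. Of the other complement genes 4 were called between 24 and 6 months, but 0 with G150 alone or with G151 and G152 alone, 1 with only the groups compared, and 1 to 5 with a liver left out. Array weights gave 1 between 12 and 6 months, where 0 were called. Fewer arrays, groups or probe sets change the power by construction, and otherwise the cause was not tested. Same-numbered mice did not deviate together (r from −0.14 to 0.14, median 0.02, over 39 pairs), so the block result is no paired analysis. The use of other 1-gene probe sets of a gene gave no value because each measured gene has only 1.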
